A study of Homo sapiens with 12 samples.

Results

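SLC4A8 and the genes next to it on the long arm of chromosome 12 were examined in NCCIT cells, a human embryonal carcinoma line, after an activator or a repressor had been recruited to LTR5HS. The 7 genes are DAZAP2, SMAGP, CELA1, GALNT6, SLC4A8, SCN8A and ANKRD33. They were taken by exact gene name from the 26641 genes of the count table, and all 7 names were present. LTR5HS is the long terminal repeat of the human endogenous retrovirus HERVK, and its solo copies are scattered over the genome, in and between host genes.

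Polyadenylated RNA was sequenced from 12 libraries, made from 6 lines with 2 independent biological replicates each. Every line carried a doxycycline-inducible *S. pyogenes* dCas9 fused either to the activator VPR (dCas9-VPR, CRISPRa) or to the repressor KRAB (dCas9-KRAB, CRISPRi), and every line was given doxycycline for 4 days. Each line also carried 1 of 3 CARGO arrays, which are tandem blocks of guide RNAs. The recruitment array (LTR5HS Sp) pairs LTR5HS guides with the *S. pyogenes* scaffold. The control arrays hold either the LTR5HS guides on a *S. aureus* scaffold (LTR5HS Sa) or guides without a human target on the *S. pyogenes* scaffold (nontarget Sp). Recruitment (2 libraries) was compared with control (4 libraries) within each fusion, which asks how a gene responds when the LTR5HS are activated or repressed together. With the recruitment array the authors also found dCas9 at many copies of the related LTR5A and LTR5B and at sites outside these LTRs. Effects through such sites cannot be told apart here from effects through LTR5HS. Each combination of fusion and array is 1 line, so a property of a line and the effect of its array cannot be told apart.

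An LTR works as a promoter and enhancer for its own provirus, and a solo LTR keeps those sequences. SLC4A8 encodes a sodium-driven chloride bicarbonate exchanger that brings bicarbonate into cells and is best known from neurons. SCN8A, its neighbour on one side, encodes the voltage-gated sodium channel Nav1.6, and GALNT6, its neighbour on the other, encodes an enzyme that starts mucin-type O-glycosylation in the Golgi.

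The guides of the recruitment array have matches inside SLC4A8. The 12 guide sequences, each 16 bases long, were searched on both strands of GRCh38 over 1.65 Mb of chromosome 12 around the 7 genes, with at most 1 mismatch and an NGG motif after the match. The search found matches of 7 guides, of which 6 were exact, at 6 positions, and all fell in 1 cluster of 492 bp, chr12:51454438-51454929. The cluster lies in intron 5 of SLC4A8, which is 3.65 kb long in the canonical transcript of 25 exons, between the exons at chr12:51453539-51453699 and chr12:51457351-51457539. Guide LTR5HS-3 shares the site of LTR5HS-2 and differs from that site by the single substitution T6C, counted from 1 at the guide's 5′ end. The sites are shown because they are the only matches of the array that the search found in this window. They are written 5′ to 3′ on the strand that the guide reads, with the 3 bases of the NGG motif in capitals.

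LTR5HS-1, minus strand, chr12:51454438-51454456: tactaagggaactcagAGG
LTR5HS-2 and LTR5HS-3, minus strand, chr12:51454666-51454684: aaaaccgccttagggcTGG
LTR5HS-9, plus strand, chr12:51454729-51454747: gacattccattgcccaGGG
LTR5HS-8, minus strand, chr12:51454818-51454836: taaagggtctgtgctgAGG
LTR5HS-4, minus strand, chr12:51454831-51454849: agcccgacacccgtaaAGG
LTR5HS-7, plus strand, chr12:51454911-51454929: aaccttggacaataccTGG

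The genes lie on both sides of these sites. SLC4A8 (chr12:51391317-51515763, plus strand) has its annotated transcription start site (TSS) 29.9 kb before the centre of the cluster, so the sites are downstream of the promoter and within the gene. GALNT6 (chr12:51351247-51392867, minus strand) starts 63.3 kb away and CELA1 (chr12:51328442-51346679, minus strand) 108.0 kb away. SCN8A (chr12:51590266-51812864, plus strand) starts 136.5 kb away on the other side. These 3 genes, like SMAGP (chr12:51244558-51270415, minus strand, 184.3 kb) and ANKRD33 (chr12:51888009-51891727, plus strand, 433.4 kb), have the sites upstream of their TSS. DAZAP2 (chr12:51238724-51271362, plus strand, 215.9 kb) has them downstream, beyond the end of the gene. The outermost annotated bounds of GALNT6 and SLC4A8 overlap on opposite strands, SMAGP lies within the bounds of DAZAP2 on the opposite strand, and the antisense RNA SLC4A8-AS1 lies within SLC4A8. The strand setting of the counting is not given in the sources used here and the cDNA synthesis does not mark strand. Reads in any exon stretch that both partners share thus cannot be assigned to 1 of them with certainty. Whether the counted exons overlap was not checked.

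Library totals ran from 13601701 to 69797411 counts, and the highest was dCas9-KRAB nontarget Sp replicate 2. A count of 0 in 1 library allows a level of up to 3 counts, which is 0.0455 to 0.233 CPM, for counting error only. CPM denotes counts normalized to the TMM-scaled library total. All 8 embryonal carcinoma and pluripotency markers examined averaged above 1 CPM over the 12 libraries, with summed levels from 775 to 3410 CPM. Some varied more than the sum, with NANOG at 1.05 to 185, TDGF1 at 9.04 to 252 and POU5F1 at 9.85 to 113 CPM. SALL4 varied less, at 81.6 to 172 CPM. In the control arms the pluripotency sum was 775 to 1460 CPM with dCas9-VPR and 2880 to 3350 CPM with dCas9-KRAB. The sum of the 4 mesoderm markers was 151 to 283 CPM and 7.06 to 18.3 CPM in the same arms, with most of it HAND1 with dCas9-VPR. Over the 12 libraries HAND1 was at 4.19 to 279 CPM, MIXL1 at most 5.29, TBX6 at most 1.01 and T at most 0.056 CPM.

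The baseline levels of the 7 genes were set side by side per kb of counted gene length. In the dCas9-KRAB control libraries SMAGP was highest at 17.5 ± 0.79 CPM per kb (SD, n = 4), followed by DAZAP2 at 17.1 ± 1.13, and the ranges of this pair overlapped. GALNT6 followed at 7.11 ± 0.82 CPM per kb, then SCN8A at 5.75 ± 0.335 and SLC4A8 at 5.12 ± 0.75, whose ranges also overlapped. ANKRD33 averaged 0.201 ± 0.127 CPM per kb and CELA1 0.00797 ± 0.0159. In the dCas9-VPR control libraries the order began with DAZAP2 at 24.2 ± 4.53 CPM per kb, ahead of SMAGP at 13.2 ± 2.38 and GALNT6 at 10.8 ± 3.12, whose ranges overlapped. SLC4A8 (3.18 ± 0.408) and SCN8A (2.75 ± 0.669) again overlapped each other. The last places in the order were the same with both fusions, held by ANKRD33 and then CELA1.

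SLC4A8 was the gene that moved with the fusion, higher where the activator was recruited and lower where the repressor was. With dCas9-VPR its level was 70.0 and 75.7 CPM in the recruitment libraries. The LTR5HS Sa libraries held 37.7 and 37.3 CPM and the nontarget Sp libraries 44.5 and 48.4 CPM. Both recruitment libraries were above all 4 control libraries. The fold change was 1.74 (log2 0.80, SE 0.131, 95% interval 0.50 to 1.10), with an adjusted p of 0.00276 (quasi-likelihood F-test of edgeR, p-values adjusted after Benjamini and Hochberg over the 16271 genes tested).

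With dCas9-KRAB the recruitment libraries held SLC4A8 at 15.5 and 17.1 CPM. The LTR5HS Sa libraries held 60.1 and 80.2 CPM, and the nontarget Sp libraries 59.3 and 70.9 CPM. The groups did not overlap, and the highest recruitment library was well below the lowest control library. SLC4A8 was 4.15-fold lower (log2 -2.05, SE 0.166, 95% interval -2.42 to -1.68, adjusted p = 0.00011 by the same edgeR test over 15520 genes). Of the tested genes, 1.41% had a change of larger size in this comparison, against 23.3% with CRISPRa. The recruitment effect with dCas9-VPR exceeded that with dCas9-KRAB by 2.85 on the log2 scale (SE 0.214, 95% interval 2.39 to 3.31, adjusted p = 9.07e-07, edgeR interaction term over 12 libraries). This was not particular to SLC4A8, and 21.0% of all tested genes had a called interaction in either direction. GRASP, METTL7A and GALNT8, given below, are among the other genes with a called interaction of the same sign. The counts are summed over the exons of a gene, so they do not show from which start the transcripts came or which exons they held. From reads of the same study, the authors name SLC4A8 among the few genes with an appreciable level of transcripts joined to LTR5HS. The share of such transcripts in these counts was not tested. In bulk RNA, fewer cells with a transcript and less transcript per cell cannot be told apart.

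**Figure D1:**
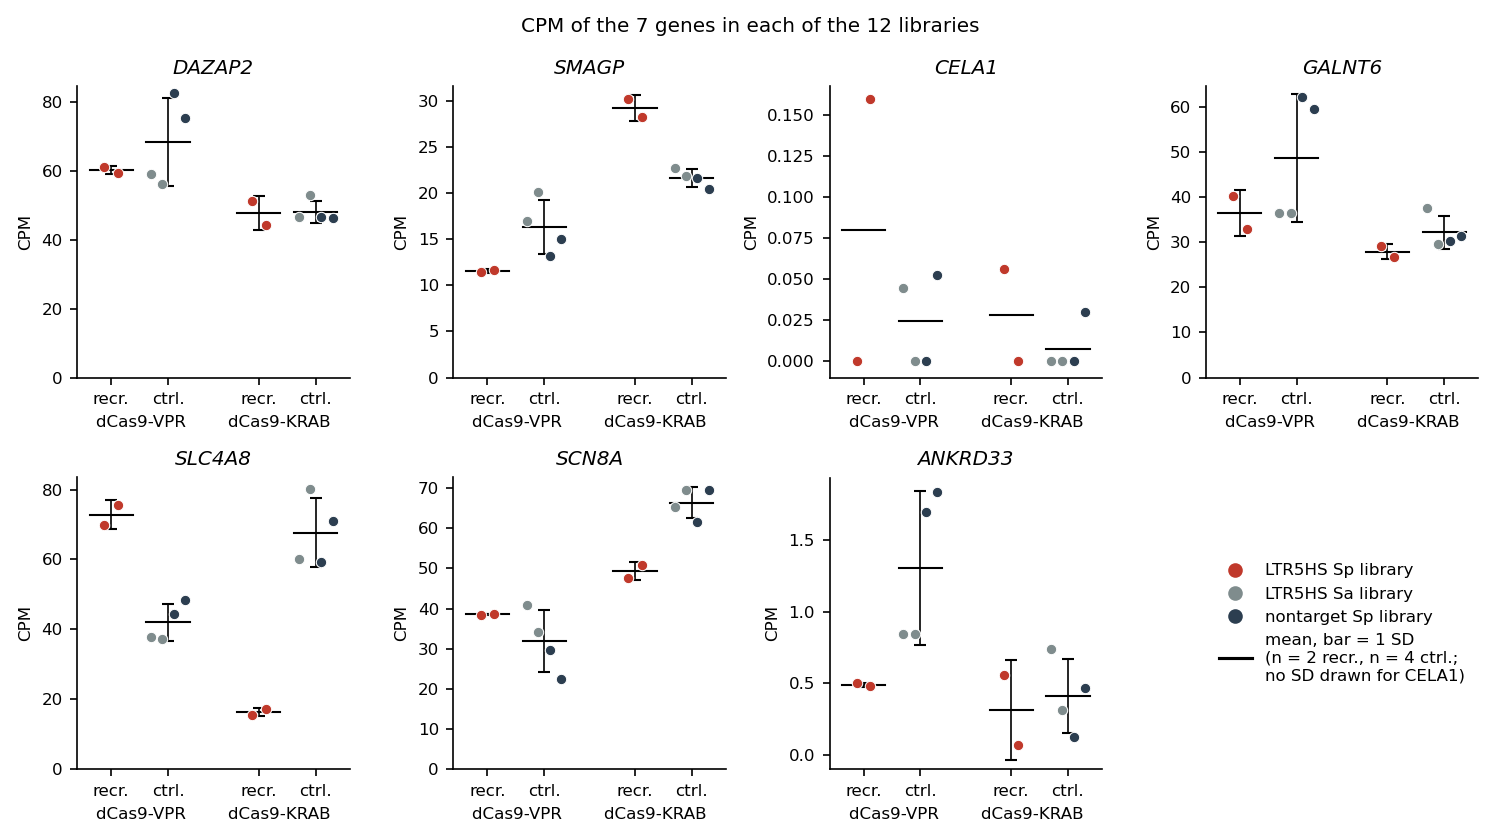
Level of each of the 7 genes (y axis, CPM, linear scale) in the recruitment and control libraries of each fusion (x axis). Each point is 1 library, coloured by array, lines are means and bars 1 SD (n = 2 and n = 4). SLC4A8 is at 70.0 and 75.7 CPM with dCas9-VPR recruitment and at 15.5 and 17.1 CPM with dCas9-KRAB recruitment, outside the range of its controls on opposite sides.

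SLC4A8 was called against either control array alone. With dCas9-VPR the log2 fold change was 0.95 against LTR5HS Sa and 0.66 against nontarget Sp, and with dCas9-KRAB it was -2.10 and -2.01. Markers of other cell types also changed with recruitment. With CRISPRa, SOX2, a pluripotency factor, fell by 1.24 on the log2 scale (edgeR adjusted p = 0.00735), 1 of 8 pluripotency markers called, and the sum of that list was 801 to 850 CPM in recruitment and 775 to 1460 CPM in control. The trophoblast factor GATA3 was the 1 tested gene of 4 trophoblast markers and rose by 1.48 with CRISPRa and 1.47 with CRISPRi (edgeR adjusted p = 0.00617 and 0.0259). The sum of that list was 22.3 to 31.2 CPM in dCas9-VPR recruitment against 6.65 to 13.1 CPM in control, and 4.13 to 5.99 against 1.4 to 2.5 CPM with dCas9-KRAB. Most of this sum was GATA3. Over the 12 libraries KRT7 was at most 0.695, CGB5 at most 0.368 and CGA at most 0.0569 CPM. Of the fibroblast markers THY1 rose with CRISPRa and LUM with CRISPRi, and the sums were 111 to 118 against 42.3 to 77.5 CPM and 137 to 163 against 189 to 212 CPM with most of it THY1, while COL1A2 stayed at 0 to 0.267 CPM. The neural marker TUBB3 fell with CRISPRa, and the neural sum was 112 to 132 CPM in recruitment against 153 to 242 CPM in control, with most of it TUBB3. The other neural markers were low, with SOX1 at most 3.57, PAX6 at most 2.89 and NEUROD1 at most 0.0526 CPM. The part of these markers in the change of SLC4A8 was not tested.

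SCN8A, whose TSS is the nearest on the far side of SLC4A8, stayed below the threshold with both fusions. With dCas9-KRAB the recruitment libraries held 47.7 and 50.9 CPM. The LTR5HS Sa libraries held 65.2 and 69.5 CPM and the nontarget Sp libraries 61.5 and 69.5 CPM. All recruitment values were below all control values, but the log2 difference of -0.43 (SE 0.112, 95% interval -0.68 to -0.18) had an adjusted p of 0.0957 by edgeR. With dCas9-VPR the recruitment libraries were at 38.5 and 38.6 CPM, the LTR5HS Sa libraries at 40.9 and 34.2 CPM, and the nontarget Sp libraries at 29.7 and 22.5 CPM. These groups overlapped, and the log2 difference was 0.28 (SE 0.215, 95% interval -0.22 to 0.77, edgeR adjusted p = 0.379). The interaction was 0.71 (SE 0.248, edgeR adjusted p = 0.0605), and it was called under 5 of 20 alternative settings.

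GALNT6 lies on the other strand from SLC4A8, and the outermost annotated bounds of both genes overlap. With dCas9-VPR it was at 40.1 and 32.8 CPM in recruitment, 36.5 and 36.4 CPM in LTR5HS Sa, and 62.1 and 59.5 CPM in nontarget Sp. The recruitment libraries lay around the LTR5HS Sa libraries and below the nontarget Sp libraries. The log2 difference from both controls together was -0.41 (SE 0.248, edgeR adjusted p = 0.257). With dCas9-KRAB the recruitment libraries held 29.1 and 26.7 CPM, the LTR5HS Sa libraries 37.6 and 29.5 CPM, and the nontarget Sp libraries 30.2 and 31.3 CPM. Recruitment was below every control library, by a log2 difference of -0.20 (SE 0.14, 95% interval -0.51 to 0.11, edgeR adjusted p = 0.585). GALNT6 thus had a negative difference in both comparisons, in neither case past the threshold.

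SMAGP, which encodes a small transmembrane protein found at cell contacts in epithelia, had differences of the opposite sign to those of SLC4A8. With dCas9-VPR its recruitment libraries held 11.4 and 11.7 CPM, the LTR5HS Sa libraries 17.0 and 20.1 CPM, and the nontarget Sp libraries 13.2 and 15.0 CPM. With dCas9-KRAB recruitment gave 30.2 and 28.2 CPM, LTR5HS Sa 22.7 and 21.8 CPM, and nontarget Sp 21.6 and 20.4 CPM. The groups did not overlap with either fusion. The log2 differences were -0.50 (SE 0.198, adjusted p = 0.0961) and 0.44 (SE 0.122, adjusted p = 0.12), neither of them called by edgeR. The difference between the 2 responses was called, at -0.94 (SE 0.22, 95% interval -1.41 to -0.46, adjusted p = 0.00848, edgeR interaction term). The gene lies within the bounds of DAZAP2 on the other strand. Whether the counted exons of both genes overlap was not checked, and reads of any such overlap cannot be told apart.

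DAZAP2 encodes a small adaptor protein that binds the germ cell factor DAZ and takes part in stress granules. With dCas9-VPR it was at 61.2 and 59.4 CPM in recruitment, 59.0 and 56.2 CPM in LTR5HS Sa, and 82.7 and 75.4 CPM in nontarget Sp. With dCas9-KRAB it was at 51.3 and 44.4 CPM in recruitment, 46.6 and 52.9 CPM in LTR5HS Sa, and 46.7 and 46.4 CPM in nontarget Sp. The groups overlapped with both fusions. The 95% interval of the log2 difference ran from -0.55 to 0.20 with CRISPRa and from -0.27 to 0.26 with CRISPRi (edgeR adjusted p = 0.466 and 0.993).

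ANKRD33 and CELA1 were at or near the limit of what these libraries can show. ANKRD33 encodes an ankyrin repeat protein known from photoreceptors. With dCas9-VPR it held 0.501 and 0.481 CPM in recruitment, 0.847 and 0.844 CPM in LTR5HS Sa, and 1.70 and 1.84 CPM in nontarget Sp, from 9 to 35 counts a library. Recruitment was below every control library, and the log2 difference of -1.39 (SE 0.474, 95% interval -2.48 to -0.30) missed the threshold with an edgeR adjusted p of 0.0605. With dCas9-KRAB it had 1 to 31 counts a library and too few for a test. CELA1, a chymotrypsin-like elastase, had 0 to 3 counts in each of the 12 libraries and 8 counts in all, so no difference was detectable at this depth. The 4 pancreatic acinar markers examined, CELA1 not among them, summed to at most 0.466 CPM, and PRSS1 was at 0 in all libraries.

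With CRISPRa, 6 of the 7 genes were tested and 1 was called, SLC4A8, against 28.0% of all tested genes (15.7% higher and 12.3% lower). The libraries of recruitment and control did not overlap for 3 of the 6 (SLC4A8, ANKRD33 and SMAGP), against 49.9% of all tested genes, so this share is close to the background. With CRISPRi, 5 were tested and 1 was called, again SLC4A8, against 2.77% of all tested genes (0.831% higher and 1.94% lower). There 4 of the 5 did not overlap (all but DAZAP2), against 23.3%. The interaction was called for 2 of 6, SLC4A8 and SMAGP, against 21.0%. It was not called for SCN8A (above), GALNT6 (-0.21, SE 0.308), DAZAP2 (-0.17, SE 0.211) or ANKRD33 (-1.08, SE 0.999), with edgeR adjusted p of 0.685, 0.624 and 0.501 for the last 3. The CRISPRa count rose to 4 against the nontarget Sp libraries alone (SLC4A8, ANKRD33, GALNT6 and SCN8A), and to 2 against the LTR5HS Sa libraries alone (SLC4A8 and SMAGP).

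**Figure D2:**
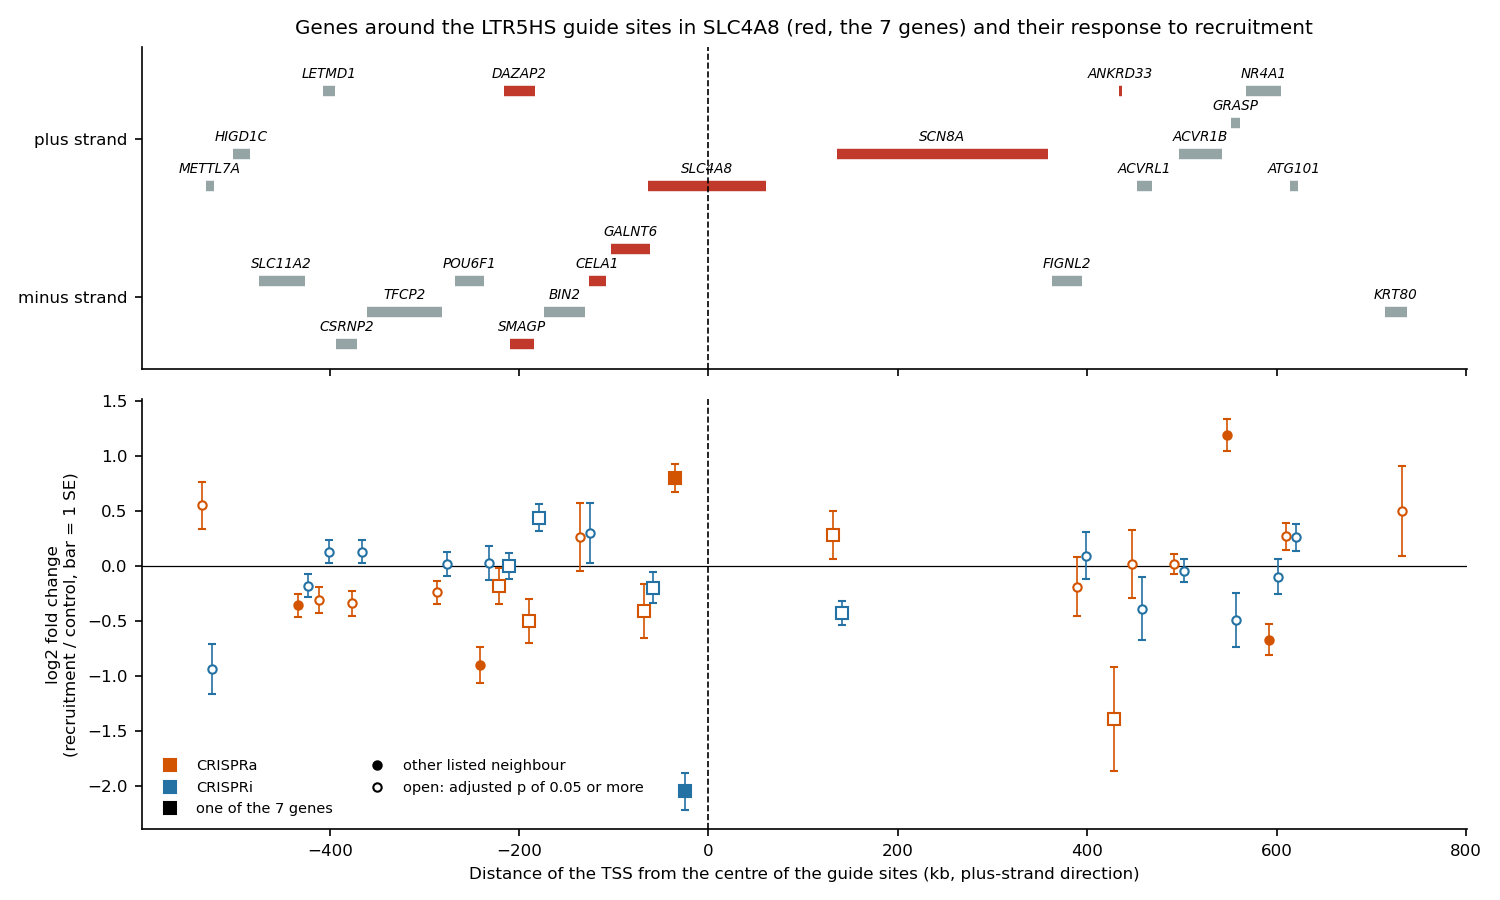
Top, the 7 genes (red) and 15 other listed neighbours (grey) by strand, with vertical position within a strand set only to keep names apart. Bottom, log2 fold change of recruitment over control (y axis, bars 1 SE) at each TSS by its distance in kb from the centre of the guide sites (x axis, points of the 2 fusions set slightly apart), orange for CRISPRa and blue for CRISPRi, filled where the edgeR adjusted p was under 0.05. SLC4A8, at 0.80 and -2.05, is the one gene drawn that is filled in both colours.

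The control arrays were also compared with each other, first with dCas9-VPR. In all 6 tested genes the nontarget Sp libraries and the LTR5HS Sa libraries did not overlap, against 48.2% of all tested genes. Nontarget Sp was higher for SLC4A8 (log2 0.29), GALNT6 (0.72), ANKRD33 (1.04) and DAZAP2 (0.44) and lower for SCN8A (-0.55) and SMAGP (-0.42). Only GALNT6 was called, with an edgeR adjusted p of 0.0193, while 4.51% of all tested genes were called. With the replicate number as a block, which the pairing check allows, all 6 were called and the share of all tested genes rose to 19.2%. With dCas9-KRAB none of the 5 tested genes was called between the arrays by edgeR, none had an unadjusted p under 0.05, and DESeq2 called none, while edgeR called 0.567% of all tested genes. The log2 differences of nontarget Sp from LTR5HS Sa were -0.11 for SLC4A8, -0.044 for SCN8A, -0.13 for GALNT6, -0.095 for SMAGP and -0.10 for DAZAP2, and ANKRD33 and CELA1 were not tested.

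The fusions differed where nothing was recruited. In the control libraries all 6 tested genes differed between dCas9-VPR and dCas9-KRAB, against 55.4% of all tested genes called. SCN8A was lower with dCas9-VPR by a log2 difference of -1.06 (edgeR adjusted p = 4.88e-05) and SLC4A8 by -0.69 (edgeR adjusted p = 0.000341). SMAGP was also lower, by -0.40, whereas GALNT6 (0.60), DAZAP2 (0.51) and ANKRD33 (1.64) were higher. The SLC4A8 level with dCas9-VPR recruitment, 72.8 ± 3.99 CPM (SD, n = 2), was thus within the range of the dCas9-KRAB control libraries, 59.3 to 80.2 CPM. The pluripotency sum and the mesoderm sum (mostly HAND1 with dCas9-VPR) given above separate the same arms, and their part in these differences was not tested.

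Between and beyond the 7 genes, 15 more were examined, from METTL7A, 529.7 kb from the sites on one side, to KRT80, 737.3 kb on the other. With CRISPRa, 14 were tested, 1 was higher and 3 lower, beside 15.7% and 12.3% of all tested genes, with a median log2 fold change of -0.09 against -0.019 over all tested genes. GRASP, which encodes a scaffold protein of postsynaptic receptors, rose from 20.9 ± 3.07 CPM (SD, n = 4) to 47.6 ± 2.79 CPM (n = 2), a log2 change of 1.19 (edgeR adjusted p = 0.000646). Its TSS is 552.3 kb from the sites. With CRISPRi GRASP was at 7.67 ± 0.158 CPM in recruitment and 10.9 ± 2.71 CPM in control (log2 -0.49, edgeR adjusted p = 0.427). Its interaction was called, at 1.68 (SE 0.296, edgeR adjusted p = 0.00131). The transcription factor genes POU6F1 and NR4A1 were lower, by log2 differences of -0.90 and -0.67 (edgeR adjusted p = 0.00421 and 0.00963). The iron transporter gene SLC11A2 was lower by -0.36 (edgeR adjusted p = 0.0304).

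With CRISPRi, edgeR called 0 of the 13 tested in this wider set, 1 had an unadjusted p under 0.05, and DESeq2 called 1. In both cases the gene was METTL7A, named after its values were seen, at 22.4 to 26.2 CPM in recruitment and 33.8 to 64.6 CPM in control. Its log2 difference was -0.94 (SE 0.228) with an edgeR adjusted p of 0.0696, and 0.0344 with the replicate block. With CRISPRa METTL7A differed by 0.55 (SE 0.217, edgeR adjusted p = 0.0953), and its interaction was called, at 1.49 (SE 0.332, edgeR adjusted p = 0.00607). Its control level was 5.75 ± 1.09 CPM with dCas9-VPR and 46.7 ± 12.9 CPM with dCas9-KRAB (SD, n = 4). Between the dCas9-KRAB control arrays METTL7A, like GRASP and FIGNL2, had an unadjusted p under 0.05 by edgeR, and 0 of the 13 were called. The median of the 13 was 0.017 against 0.0006 over all tested genes. The interaction was tested for 14 of the 15 genes. It was called positive for 2 (GRASP and METTL7A) and negative for 3, beside 21.0% called among all tested genes. ACVR1B, an activin receptor gene, differed by 0.016 with CRISPRa and -0.042 with CRISPRi (SE 0.0907 and 0.103).

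The relatives of SLC4A8 elsewhere in the genome were compared next. Of 9 other genes of the SLC4 family, 7 were tested with CRISPRa, 2 were higher and 3 lower, beside 15.7% and 12.3% of all tested genes. The median log2 fold change was -0.72 against -0.019 over all tested genes. SLC4A1, the anion exchanger of red cells, rose by 1.83 but from 0.332 ± 0.0582 to 1.20 ± 0.189 CPM (edgeR adjusted p = 0.00483). SLC4A5, a sodium bicarbonate cotransporter, went from 22.5 ± 2.98 to 13.6 ± 0.817 CPM (log2 -0.72, edgeR adjusted p = 0.011). SLC4A11 and SLC4A9 were lower by -1.50 and -1.63 (edgeR adjusted p = 0.0148 and 0.0167).

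The fifth called gene of that family, SLC4A2, named after its values were seen, was an abundant one, at 544 ± 68.2 CPM in recruitment and 305 ± 78.6 CPM in control (log2 0.84, edgeR adjusted p = 0.0183). With CRISPRi edgeR and DESeq2 called 0 of the 6 tested, and 1 had an unadjusted p under 0.05 by edgeR (SLC4A7, log2 -0.32). The largest size of change in that family with CRISPRi was -0.38 (SE 0.542), for SLC4A9, against -2.05 for SLC4A8. Median changes were -0.19 for the family and 0.0006 for all tested genes.

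Of 8 other sodium channel alpha subunit genes, edgeR called 0 of the 3 tested with CRISPRi, with 0 at an unadjusted p under 0.05 and 0 by DESeq2. Their median log2 fold change was -0.049 against 0.0006 over all tested genes.

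Of 18 other polypeptide GalNAc-transferase genes, 14 were tested with CRISPRa, 2 were higher and 3 lower, beside 15.7% and 12.3% of all tested genes, with a median of -0.19 against -0.019 over all tested genes. GALNT8 rose from 1.60 ± 0.533 to 14.9 ± 0.534 CPM (log2 3.21, edgeR adjusted p = 9.66e-05) and GALNT18 from 1.49 ± 0.692 to 11.1 ± 1.45 CPM (log2 2.90, edgeR adjusted p = 0.000766). GALNT12 went from 6.21 ± 1.08 to 1.74 ± 0.104 CPM (log2 -1.83, edgeR adjusted p = 0.00138). GALNT7 and GALNT11, named after their values were seen, were lower by -0.73 and -0.55. With CRISPRi 1 of 11 tested was called, and it rose, beside 2.77% of all tested genes called in either direction. By edgeR 2 had an unadjusted p under 0.05, GALNT10 and GALNT8. GALNT8 was lower, by -0.69 (SE 0.231, edgeR adjusted p = 0.207), and its interaction was called, at 3.89 (SE 0.382, edgeR adjusted p = 9.39e-06). GALNT10 was at 134 to 137 CPM in the dCas9-KRAB recruitment libraries and 37.2 to 46.7 CPM in control, a log2 change of 1.77 (SE 0.12, edgeR adjusted p = 5e-05), opposite in sign to that of SLC4A8. The median of the 11 was 0.015 against 0.0006 over all tested genes.

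**Figure D3:**
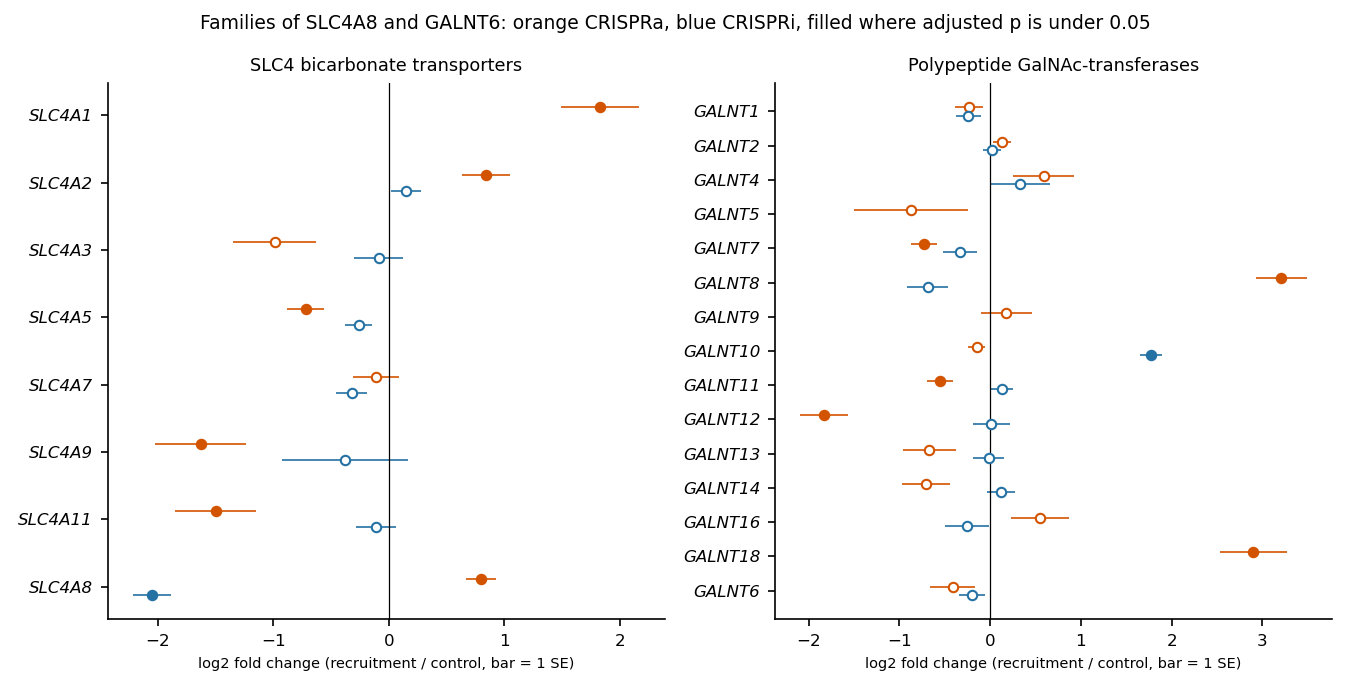
Log2 fold change of recruitment over control (x axis, bars 1 SE) for the tested relatives of SLC4A8 and GALNT6 (y axis, 1 gene a row, with the named gene at the bottom), orange for CRISPRa and blue for CRISPRi, filled where the edgeR adjusted p was under 0.05. With CRISPRi the filled points are SLC4A8 at -2.05 and GALNT10 at 1.77.

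The profile of SLC4A8 over the 12 libraries was also used to find the genes most like it. Likeness was measured as the root mean square difference between log2(CPM + 1) profiles, each centred on its own mean, among 15144 genes tested with both fusions. The closest was LINC00847, a long noncoding RNA, at 0.197, followed by UBE2Q2 (a ubiquitin-conjugating enzyme, 0.218), PROCR (the endothelial protein C receptor, 0.225), ASRGL1 (an asparaginase, 0.247) and SPSB2 (a SOCS box adaptor, 0.297). The median over all genes compared was 0.81. Of the other members DAZAP2 was at 0.745, GALNT6 at 0.754, SCN8A at 0.813 and SMAGP at 1.04, all farther than the closest 5. The 5 genes were picked for this pattern, and their log2 fold changes are given as a description. These ran from 0.65 (PROCR) to 1.30 (ASRGL1) with CRISPRa and from -2.22 (PROCR) to -1.73 (SPSB2) with CRISPRi.

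**Figure D4:**
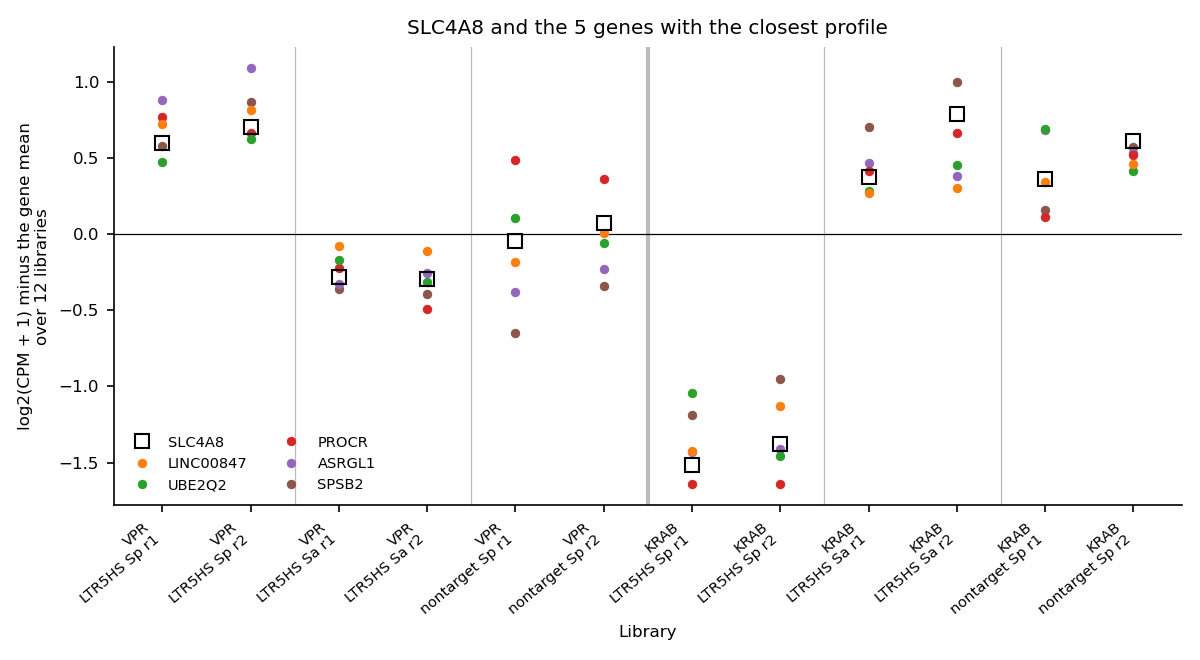
Level of SLC4A8 (open squares) and of the 5 genes with the most similar profile (points) in each library (x axis), as log2(CPM + 1) minus the mean of the gene over the 12 libraries (y axis). All 6 genes are lowest in the dCas9-KRAB recruitment libraries, where SLC4A8 was at 15.5 and 17.1 CPM, and are above their mean in the dCas9-VPR recruitment libraries, where it was at 70.0 and 75.7 CPM.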

How the data were processed

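The authors deposited 1 table of unnormalized read counts for every gene in the 12 libraries, together with a gene length in bp. The submitters' processing notes name CASAVA 1.8, cutadapt 1.8.1, HISAT2 2.1.0, featureCounts 1.4.6-p2 and the build hg38, and the gene annotation and strand setting are not given in the sources used here. Of the 26641 genes, 3395 had 0 counts in every library. Each fusion was fitted alone with edgeR 4.0.16 in R 4.3.3 (filterByExpr, TMM, quasi-likelihood F-test, Benjamini-Hochberg adjustment over all genes tested, threshold 0.05), and the interaction and the comparison of fusions used all 12 libraries. DESeq2 1.42.0 was an alternative, and the pipeline was tested on simulated data. Intervals are 95% intervals. CPM per kb used the deposited gene length.

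Replicate numbers came from the labels. The differences between replicates 1 and 2 correlated between arrays in every pair (Pearson r across genes, 0.322 to 0.447 with dCas9-VPR and 0.198 to 0.522 with dCas9-KRAB), so the replicate block is given where it changes a result. Positions and TSS were taken from GENCODE on GRCh38, and guide sequences from the study's list of guides.

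The 7 genes and the lists of neighbours, relatives and markers were chosen with earlier results of these data known. The 7 genes were named in each comparison in which they were tested, and CELA1 was tested in none. From each list at most 4 called genes were named, by smallest adjusted p, and any others are marked as chosen after their values were seen. ACVR1B was likewise named after its values were seen. The CRISPRa result of the other sodium channel genes is not reported here.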

Additional observations from a re-analysis of the deposited data

Results flagged for a closer look

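The response to recruitment differed between the fusions for a pair of the genes, by the edgeR interaction term. The difference was 2.85 on the log2 scale for SLC4A8 and -0.94 for SMAGP, in opposite directions.

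Of 14 groups of 4 control libraries tested for a single value far from the rest (Dixon's critical value 0.829, which chance passes in about 1 of 20 groups), 2 held one. DAZAP2 in the dCas9-KRAB control was at 52.9 CPM in LTR5HS Sa replicate 2, with the others between 46.4 and 46.7 CPM. CELA1 in the same control arm was at 0.0303 CPM in nontarget Sp replicate 2, the library with the highest total, and at 0 in the others, which is 2 counts against 0.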

How the results depend on the processing

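SLC4A8 was called under all 15 alternatives with CRISPRa (log2 0.66 to 0.95, largest adjusted p 0.0376) and all 15 with CRISPRi (-2.13 to -1.97, largest adjusted p 0.00247), and its interaction under all 20 (2.65 to 3.06). The SMAGP interaction was also called under all 20 (-1.07 to -0.77). The SCN8A interaction ran from 0.49 to 0.98 and was called under 5 of the 20, where the count of called interactions rose from 2 to 3. These were DESeq2, nontarget Sp alone, arrays as separate groups, and the fits without dCas9-VPR LTR5HS Sa replicate 1 or dCas9-VPR nontarget Sp replicate 2. The count of the 7 genes called with CRISPRa was 1, and it was 2 in a fit of all 12 libraries or against LTR5HS Sa alone, 4 against nontarget Sp alone or with arrays as separate groups, and 1 to 2 with 1 library left out (2 without LTR5HS Sa replicate 1, LTR5HS Sa replicate 2 or nontarget Sp replicate 1). With CRISPRi it was 1, and 3 with DESeq2 (SCN8A, SLC4A8 and SMAGP). Of the relatives and wider neighbours, 15 were called with CRISPRa, and 14 to 17 with 1 control library left out. The count fell where 1 of the LTR5HS Sp libraries was left out. It was 21 against LTR5HS Sa alone and 15 against nontarget Sp alone. In a fit of all 12 libraries or with arrays as separate groups it was 19, and with at least 10 counts in every library 13. With CRISPRi 1 was called, and 2 with DESeq2, no filter, the replicate block, all 12 libraries in one fit, nontarget Sp alone or arrays as separate groups, the added gene being METTL7A, and 1 to 2 with 1 library left out (2 without LTR5HS Sa replicate 2 or nontarget Sp replicate 1). Between the dCas9-VPR control arrays 1 of the 7 was called, 2 with DESeq2, 6 with the replicate block and 0 to 2 with 1 library left out (0 without either LTR5HS Sa library, 2 without nontarget Sp replicate 1). The replicate block changed no other call on the 7 genes.

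Directions turned only for differences that were not called. DAZAP2 was at 0.057 with CRISPRa against LTR5HS Sa alone. With CRISPRi it was at 0.039 against nontarget Sp alone and between -0.12 and 0.091 with 1 library left out, above 0 without LTR5HS Sp replicate 2 (0.091) and without LTR5HS Sa replicate 2 (0.041). Interactions turned to 0.27 for GALNT6 and 0.12 for DAZAP2 against LTR5HS Sa alone, and that of ANKRD33 ran from -1.84 to 1.10 with 1 library left out, with 1.10 without dCas9-KRAB LTR5HS Sp replicate 1. The cause of these changes was not tested. The recruitment arm has 2 libraries, and a fit that leaves out 1 of them assumes that the other varies like the control libraries. Depth limits ANKRD33 and CELA1.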
